A study of Mus musculus with 20 samples.

Results

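Wild-type p65 (RelA) was compared with a void plasmid in transfected B16 Bcr-Abl+ cells, a mouse melanoma line that carries the Bcr-Abl kinase. The comparison uses 6 of the 20 arrays of the series, 3 labelled WT and 3 labelled as void plasmid ("Blanck"), chosen by their labels and not by any measured value. All groups are the same Bcr-Abl+ line, so both groups carry that oncogene, and all were grown in DMEM with foetal calf serum. The other 14 arrays hold p65 with the substitution D361E (3 arrays), residues 1 to 361 of p65 (3), residues 362 to 549 (3) and both fragments together (5). These 14 arrays share the estimate of spread, and the D361E arrays are also set directly against WT at the end. The labels name a C3H strain, whereas B16 is known as a C57BL/6 line. They do not say whether the replicates were separate transfections, whether the cells were transient or stable transfectants, or how much p65 protein they made, so p-values measure the spread between these arrays, which may be technical.

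NF-kB is a family of dimeric transcription factors held inactive in the cytoplasm by IkB proteins. p65, encoded by Rela, carries a strong activation domain at its C-terminal end and, once released, enters the nucleus, binds kappaB sites and activates genes for cytokines, chemokines, survival factors and its own inhibitors. Those inhibitors, IkB-alpha and A20 among them, close a negative feedback loop. In melanoma cells NF-kB is known for driving chemokine expression.

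Each array measured total RNA in 1 colour, and a level is given as log2 of the intensity relative to that array's 75th percentile. A level compares arrays for 1 gene and does not rank genes. The 75th percentile averaged 1229 intensity units on the WT arrays and 925 on the void arrays, and 51.1% to 57.9% of spots were well above background over the 20 arrays. Of 18739 genes tested, 13824 had a symbol. A gene is called when its adjusted p from limma is under 0.05, and ± after a difference is its standard error (SE).

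With WT p65, 604 genes were higher and 1155 lower than with the void plasmid, 3.22% and 6.16% of the genes tested and 9.39% together. Most differences were small, with a median absolute log2 difference of 0.43 among called genes. Of the called genes, 285 (1.52% of those tested) changed at least 2-fold, 75 of them higher and 210 lower. The arrays of the groups did not overlap for 33.6% of all genes tested, and for 1751 of the 1759 called. The median log2 difference of all genes was -0.03. Replicates varied less in the WT group, where the median within-group SD was 0.09, than in the void group, where it was 0.157. Correlations among the 6 arrays lay between 0.979 and 0.991.

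The void arrays stood apart from the other arrays on 2 chromosomes, which bears on several results. On chromosome 5, 166 of 832 genes tested were called (20.0%), 155 of them lower and 11 higher with WT, and the median log2 difference was -0.17. On chromosome 19, which holds Rela and Nfkb2, 87 of 472 genes were called (18.4%), 78 higher and 9 lower, with a median of 0.16. On each of the other chromosomes between 4.08% and 13.1% of genes were called. The shift ran along both chromosomes: all 18 blocks of 40 neighbouring genes on chromosome 5 had a negative median, from -0.24 to -0.07, and all 10 blocks on chromosome 19 a positive one, from 0.11 to 0.20.

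Array by array, the void arrays were the ones displaced. As deviations from each gene's median over the 20 arrays, chromosome 5 stood at -0.05 to -0.02 on the WT arrays and at 0.10 to 0.15 on the void arrays. Chromosome 19 stood at -0.01 to 0.01 on the WT arrays and at -0.20 to -0.11 on the void arrays. All 17 arrays other than void lay between -0.06 and 0.05 on chromosome 5, below every void array, and between -0.02 and 0.12 on chromosome 19, above every void array. After each array's chromosome medians were subtracted, an alternative chosen after seeing the data, 1704 genes were called and 1487 of the 1759 remained with the same direction. The calls then came to 82 on chromosome 5 and 49 on chromosome 19. What sets the void arrays apart there was not tested.

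**Figure D1:**
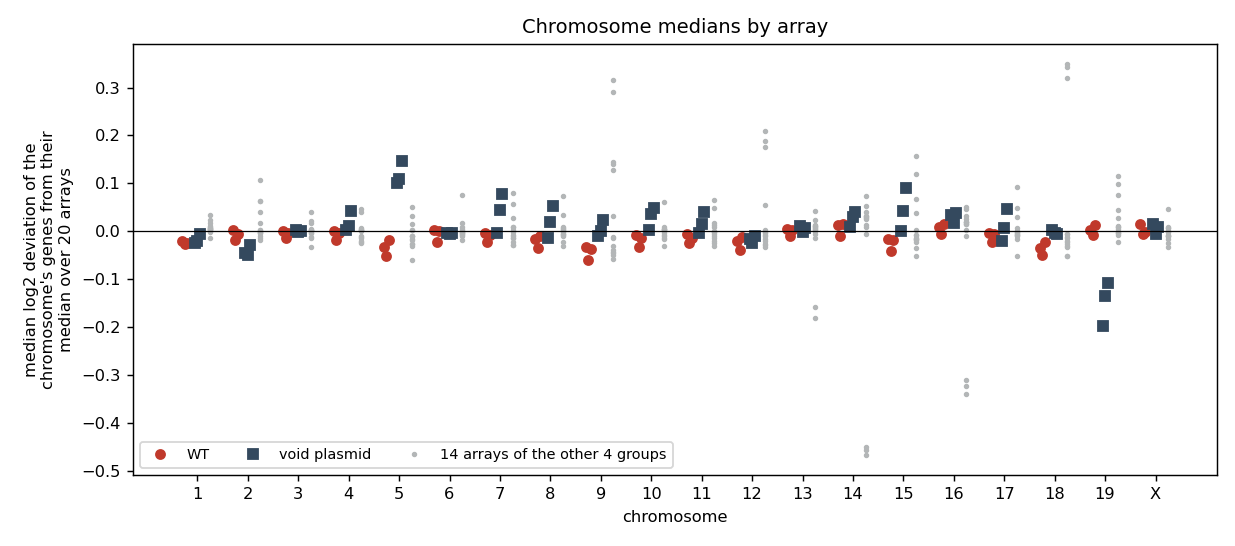
Median log2 deviation of each chromosome's genes from their median over the 20 arrays, one symbol per array, with WT arrays as red circles, void arrays as dark squares and the 14 arrays of the other groups as grey points. The void arrays lie above all the others on chromosome 5 (0.10 to 0.15) and below all the others on chromosome 19 (-0.20 to -0.11).

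Among the NF-kB subunits, 4 of 5 were measured and 2 were called, both higher, against 3.22% of all genes called higher. Rela itself stood at 4.23, 4.25 and 4.25 in the WT arrays, against 4.17, 4.14 and 4.19 in the void arrays. The groups did not overlap, but the log2 difference was only 0.07 ± 0.07 (adjusted p = 0.57), and it was -0.07 with chromosome medians subtracted. Which part of the transcript the probe reads, and so whether it can see the plasmid's p65, was not determined here.

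Relb, the subunit of the non-canonical pathway and itself an NF-kB target, was higher with WT p65. Its levels were 0.99, 1.13 and 1.09 in the WT arrays, against 0.00, -0.12 and -0.03 in the void arrays. The groups were well separated, with a log2 difference of 1.12 ± 0.11 (adjusted p = 1.3e-05). Nfkb2, which encodes the p100 precursor of p52, stood at 1.15, 1.20 and 1.27 in the WT arrays, against 0.33, 0.60 and 0.76 in the void arrays. Its difference of 0.65 ± 0.19 was close to the threshold (adjusted p = 0.045). The call was lost whichever single array was left out (adjusted p 0.058 to 0.13) and with the chromosome 19 shift subtracted (0.50, adjusted p = 0.066). Nfkb1, the p105 precursor of p50, did not pass the test (-0.03 ± 0.17).

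Of 15 measured feedback inhibitors, 3 rose and 1 fell, against 3.22% and 6.16% of all genes, with a median of 0.16 over the list. Tnfaip3, which encodes the ubiquitin-editing enzyme A20, stood at -1.74, -1.89 and -1.83 in the WT arrays, against -4.47, -4.39 and -4.42 in the void arrays. That is a log2 difference of 2.61 ± 0.15 (adjusted p = 2.7e-08), or 6.09-fold. The size depended on the processing, and over the alternatives the log2 difference ran from 1.20 to 3.00, called in each. Bcl3, an atypical IkB that acts in the nucleus, stood at -1.43, -1.55 and -1.56 in the WT arrays, against -2.76, -2.86 and -2.99 in the void arrays, a difference of 1.35 ± 0.16 (adjusted p = 6.0e-05). Nfkbia, encoding IkB-alpha, stood at 2.53, 2.35 and 2.30 in the WT arrays, against 1.49, 1.61 and 1.67 in the void arrays, a difference of 0.80 ± 0.11 (adjusted p = 0.00023). For all 3 genes every WT array was above every void array. Tnip2, whose product binds A20, fell by 0.52 ± 0.12 (adjusted p = 0.016), a call lost in 3 of the 6 fits that leave out 1 array (adjusted p up to 0.080). Tnip2 lies on chromosome 5, where the general shift also ran downward. Nfkbie, encoding IkB-epsilon, differed by 0.60 ± 0.23 and did not pass.

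**Figure D2:**
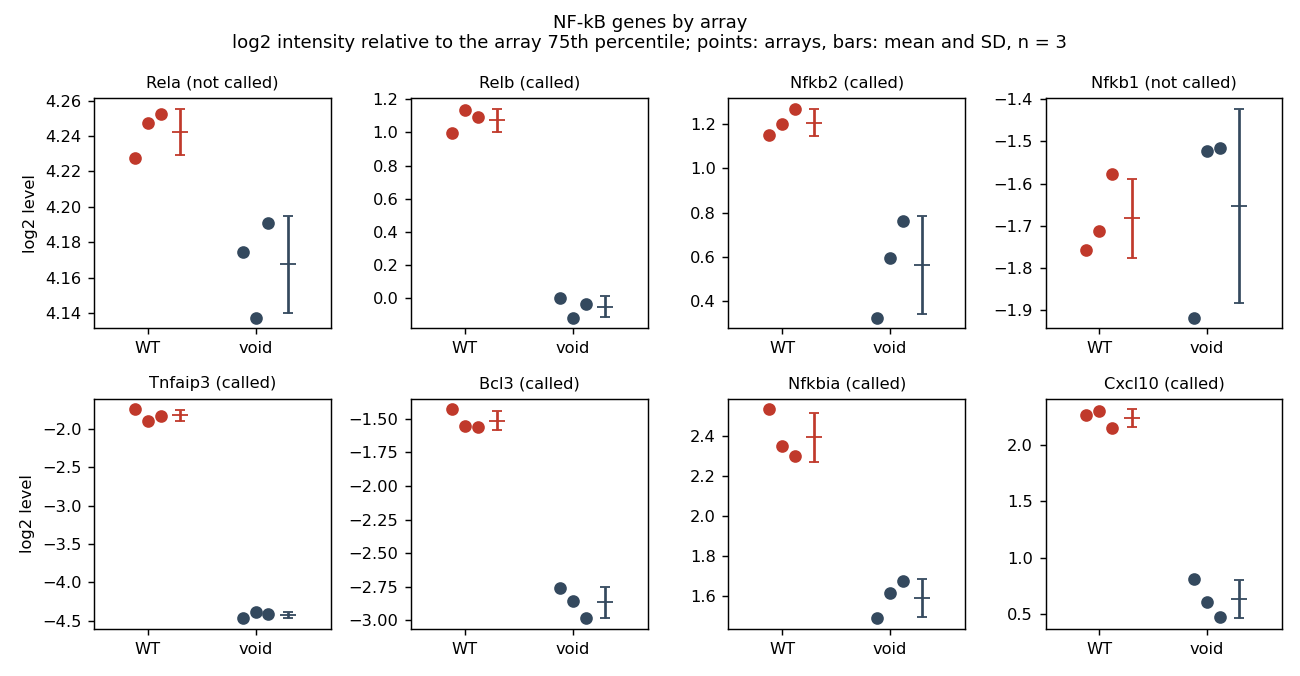
Level of 8 NF-kB genes by array, in log2 intensity relative to the array's 75th percentile, with WT arrays at left and void arrays at right, points for arrays and bars for mean and SD (n = 3 each). Each panel has its own axis. Relb, Tnfaip3, Bcl3, Nfkbia and Cxcl10 separate widely, whereas Rela differs by 0.07 and Nfkb1 overlaps.

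Of the chemokine, cytokine and adhesion genes of the NF-kB list, only 14 of 32 were measured, and 4 of them were called, all higher. Among all genes tested, 3.22% were called higher. Cxcl10, a chemokine for T cells, stood at 2.26, 2.29 and 2.15 in the WT arrays, against 0.82, 0.61 and 0.48 in the void arrays. Its difference was 1.60 ± 0.08 (adjusted p = 4.2e-09), or 3.03-fold. Cxcl1, a neutrophil chemokine long known as a melanoma growth factor, was above background on all 3 WT arrays, at -2.95, -3.23 and -3.27, and on no void array. It was at least 6.06-fold higher with WT (adjusted p = 5.5e-05), where the bound sets the WT mean against the dimmest signal that still counts as well above background. The bound holds for the main processing only, and over the alternatives the log2 difference of Cxcl1 ran from 1.00 to 4.81. Both genes lie on chromosome 5, where the general shift ran the other way. Ccl2, a monocyte chemokine, was also above background on the WT arrays only and at least 1.15-fold higher (adjusted p = 0.0018). Csf1, the macrophage growth factor, stood at -0.32, -0.27 and -0.21 in the WT arrays, against -1.16, -1.18 and -1.18 in the void arrays. Its difference of 0.91 ± 0.25 (adjusted p = 0.030) was of almost the same size without any one array (0.88 to 0.94), but then missed the threshold (adjusted p 0.059 to 0.087).

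Other branches around NF-kB had few calls, to be read against 9.39% of all genes. None of 13 measured NF-kB survival genes was called by limma (4 had an unadjusted p under 0.05), Bcl2l1 (Bcl-xL) among them at 0.07 ± 0.23. Of 20 measured genes of IKK and TNF receptor signalling, 1 was called, Traf6, at 0.38 ± 0.09 (adjusted p = 0.015), and it was not called when only the 6 arrays were fitted (adjusted p = 0.14). Of 11 measured genes of MHC class I presentation, 1 was called: Tapbp, encoding tapasin, which loads peptides onto class I molecules. It stood at 1.36, 1.39 and 1.29 in the WT arrays, against 0.22, 0.34 and 0.35 in the void arrays, a difference of 1.04 ± 0.10 (adjusted p = 5.3e-06). Of 26 interferon-stimulated genes, none rose and 2 fell. Irf4, a transcription factor of lymphocytes and melanocytes and a known NF-kB target in lymphocytes, was above background on the 3 WT arrays and no void array, and at least 2.41-fold higher (adjusted p = 3.3e-09).

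Promoter windows were searched for kappaB motifs. RefSeq promoter windows (250 bases before to 50 after a gene's start, GRCm38.p6) were found for 11035 of 13824 genes with a symbol and searched on both strands for the kappaB consensus, allowing overlapping matches. A match was present in 12.0% of all these genes, 12.5% of called higher and 15.2% of called lower genes. Of the NF-kB list genes that rose, 7 had a window and all 7 held a match, whereas Relb and Ccl2 had no window. Of the NF-kB list genes that did not rise, 16 had a window and 6 of them held a match. A match describes the letters only and is no evidence of binding. The 250 bases before the start of the 4 most clearly raised genes with a match there are shown 5′ to 3′, with the matches in capitals. These genes were picked for holding a match, so its presence in all 4 is no result.
Tnfaip3, chr10:19015411-19015660, minus strand: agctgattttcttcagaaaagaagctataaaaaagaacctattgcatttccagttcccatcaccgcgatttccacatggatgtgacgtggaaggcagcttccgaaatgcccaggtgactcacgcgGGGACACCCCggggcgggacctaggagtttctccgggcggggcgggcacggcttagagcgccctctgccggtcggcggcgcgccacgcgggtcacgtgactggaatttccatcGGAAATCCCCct
Nfkbia, chr12:55492648-55492897, minus strand: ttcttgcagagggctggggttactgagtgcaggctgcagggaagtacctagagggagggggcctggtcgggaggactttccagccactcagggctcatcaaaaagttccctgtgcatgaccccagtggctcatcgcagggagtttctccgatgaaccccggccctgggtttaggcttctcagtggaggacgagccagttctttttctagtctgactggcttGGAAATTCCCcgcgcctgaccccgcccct
Cxcl10, chr5:92348890-92349139, minus strand: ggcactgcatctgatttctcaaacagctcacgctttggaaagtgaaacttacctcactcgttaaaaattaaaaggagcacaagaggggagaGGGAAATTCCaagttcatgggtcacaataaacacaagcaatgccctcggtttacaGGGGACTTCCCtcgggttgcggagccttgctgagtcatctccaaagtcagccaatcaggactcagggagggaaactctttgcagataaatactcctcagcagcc
Cxcl1, chr5:90890995-90891244, plus strand: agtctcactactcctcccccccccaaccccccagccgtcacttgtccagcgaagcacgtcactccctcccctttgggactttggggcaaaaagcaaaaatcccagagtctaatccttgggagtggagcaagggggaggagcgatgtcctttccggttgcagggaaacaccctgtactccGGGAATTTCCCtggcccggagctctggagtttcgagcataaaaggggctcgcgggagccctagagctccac

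p53 is the tumour suppressor that activates cell cycle inhibitors and death genes after damage. Its target genes were the list with the lowest median. Of 24 measured p53 targets, 12 were lower and 1 higher with WT p65, against 6.16% and 3.22% of all genes. Their median was -0.48. Btg2, an antiproliferative gene, stood at -4.27, -4.21 and -4.25 in the WT arrays, against -2.30, -2.15 and -2.22 in the void arrays. Its difference was -2.02 ± 0.14 (adjusted p = 2.7e-07). Trp53inp1, a stress-response cofactor of p53, stood at 0.02, -0.03 and -0.06 in the WT arrays, against 1.98, 1.89 and 1.91 in the void arrays, a difference of -1.96 ± 0.08 (adjusted p = 5.8e-10). Cdkn1a, the cyclin-dependent kinase inhibitor p21, stood at 2.46, 2.53 and 2.66 in the WT arrays, against 3.73, 4.12 and 4.26 in the void arrays, a difference of -1.49 ± 0.17 (adjusted p = 4.7e-05). No WT array of these genes reached a void array.

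The other p53 targets that fell did so by less. Plk2 fell by 1.36 ± 0.24, Zmat3 by 1.03 ± 0.19 and Phlda3 by 0.96 ± 0.11. Ccng1, Aen and Bbc3, the last encoding the BH3-only death protein Puma, fell by 0.93, 0.83 and 0.69. Mdm2, the ubiquitin ligase that degrades p53, fell by 0.55 ± 0.05 (adjusted p = 1.7e-06), Sesn1 by 0.51 and Bax by 0.40. Sesn1 lost its call in 4 of the 6 fits that leave out 1 array. Plk3, the only member called higher, differed by 0.34 ± 0.09 (adjusted p = 0.024). The Plk3 call did not hold without void array 1, WT array 2 or WT array 3, nor when only the 6 arrays were fitted. It was also lost without the filter on dim probes and with normexp background correction (0.08). Trp53 itself differed by 0.25 ± 0.21 and did not pass. With chromosome medians subtracted, 13 members were called lower and 1 higher. Without scaling between arrays, 8 were lower and 2 higher, and Bbc3, Mdm2, Sesn1 and Bax lost their calls. In that setting 253 of all 18739 genes were called lower and 7425 higher. In the promoter windows a p53 half-site was present in 8.54% of all genes, in 6 of the 10 p53 targets that fell and had a window, and in 3 of the 6 with a window that were not called.

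The integrated stress response raises translation of Atf4, a transcription factor that switches on amino acid synthesis and transport genes. Of 29 measured members of this list, 17 rose and 1 fell, against 3.22% and 6.16% of all genes, and the median was 0.45. Chac1, which degrades glutathione, stood at 3.42, 3.24 and 3.03 in the WT arrays, against 1.52, 1.47 and 1.48 in the void arrays. Its difference was 1.74 ± 0.22 (adjusted p = 9.2e-05). Trib3, a pseudokinase that feeds back on Atf4, stood at 3.75, 3.50 and 3.30 in the WT arrays, against 2.06, 1.64 and 1.66 in the void arrays, a difference of 1.73 ± 0.18 (adjusted p = 1.9e-05). Nupr1, a stress-induced chromatin protein, stood at 1.40, 1.04 and 0.94 in the WT arrays, against -0.77, -0.72 and -0.61 in the void arrays, a difference of 1.83 ± 0.45 (adjusted p = 0.017). The Nupr1 call was lost in 4 of the 6 fits that leave out 1 array, with adjusted p up to 0.070. Of the other members that rose, Atf5 lost its call in 5 of those fits, Cebpg and Psph in 4 and Cebpb in 2. Without the filter on dim probes, 14 of 31 measured members rose.

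Metabolic enzymes and transporters of the response rose by less. Mthfd2, of mitochondrial folate metabolism, rose by 0.87 ± 0.09 (adjusted p = 1.1e-05). Slc7a5, a transporter of large neutral amino acids, rose by 0.71 ± 0.08, and Slc6a9, a glycine transporter, by 0.66 ± 0.07. Asns, encoding asparagine synthetase, rose by 0.36 ± 0.09 (adjusted p = 0.022), a call lost in 5 of the 6 fits that leave out 1 array (0.34 to 0.39). Atf4 itself stood at 7.34, 7.16 and 7.11 in the WT arrays, against 6.77, 6.64 and 6.54 in the void arrays, a difference of 0.56 ± 0.11 (adjusted p = 0.0043). Its call was lost with normexp background correction (0.44, adjusted p = 0.092). The death-linked factor Ddit3 (CHOP) and Atf3 did not pass, at 0.04 ± 0.12 and -0.04 ± 0.13. Ddit4, an mTORC1 inhibitor that p53 and hypoxia also induce, was the exception and fell by 1.41 ± 0.09 (adjusted p = 1.2e-07).

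**Figure D3:**
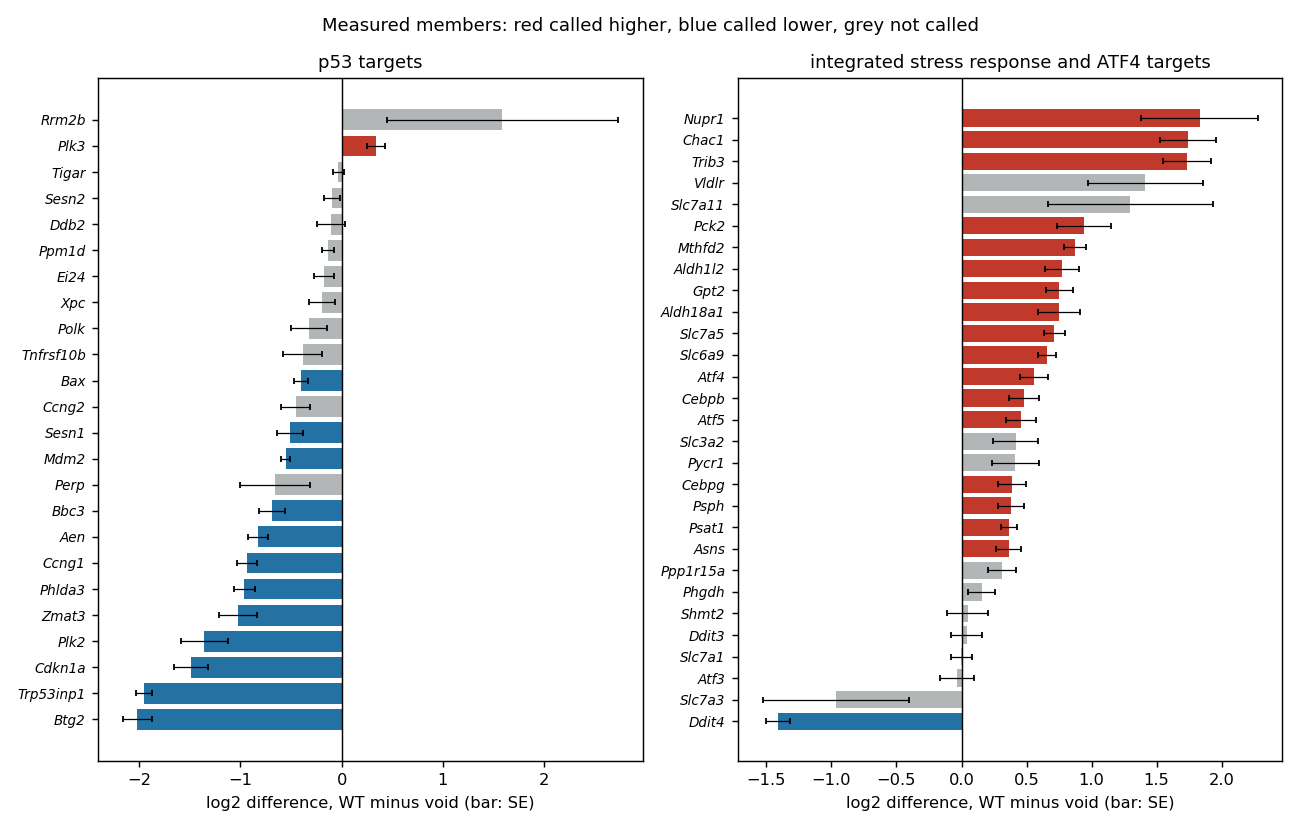
Log2 difference, WT minus void, with its SE for every measured member of the p53 target list (left) and the integrated stress response list (right). Red members were called higher, blue lower and grey not called: 12 p53 targets are blue and 1 red, and 17 stress response genes are red and 1 blue.

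The Atf4 and C/EBP composite element TGATGNAA was searched on both strands in the same windows. It was present in 2.88% of all genes, 6.75% of called higher and 2.55% of called lower genes. In the stress response list it was present in 5 of the 15 members that rose and had a window, and in 4 of the 10 with a window that were not called. The windows of Chac1 and Asns are shown because both genes rose and hold a match before the start, in capitals; they are from GRCm38.p6 and run 5′ to 3′.
Chac1, chr2:119350992-119351241, plus strand: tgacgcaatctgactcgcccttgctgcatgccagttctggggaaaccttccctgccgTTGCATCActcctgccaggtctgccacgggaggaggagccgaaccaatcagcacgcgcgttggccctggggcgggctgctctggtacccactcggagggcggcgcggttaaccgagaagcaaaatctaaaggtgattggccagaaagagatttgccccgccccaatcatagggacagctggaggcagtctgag
Asns, chr6:7693210-7693459, minus strand: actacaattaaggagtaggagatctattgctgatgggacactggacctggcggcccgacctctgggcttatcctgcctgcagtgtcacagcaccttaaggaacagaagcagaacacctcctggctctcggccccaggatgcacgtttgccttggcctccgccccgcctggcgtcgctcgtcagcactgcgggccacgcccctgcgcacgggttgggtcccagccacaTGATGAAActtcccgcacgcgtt

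Neighbouring pathways had calls in a minority of members. Of 20 cytosolic aminoacyl-tRNA synthetases, 4 rose (20.0%, against 3.22% of all genes) and none fell: Nars by 0.47 ± 0.10, Mars1 by 0.43 ± 0.05, Iars by 0.33 ± 0.06 and Tars by 0.31 ± 0.09. Iars was not called when only the 6 arrays were fitted (adjusted p = 0.058), and Tars lost its call without any one of the 6 arrays (adjusted p 0.064 to 0.17). Of 19 endoplasmic reticulum chaperones and Xbp1 targets, 4 rose (21.1%) and none fell, led by Herpud1 at 0.54 ± 0.12. Herpud1 lost its call without void array 3 or WT array 1 (adjusted p up to 0.058) and with only the 6 arrays (0.10). The list's count was 1 with only the 6 arrays and 10 with normexp. Of 20 NRF2 targets, 2 rose and 1 fell. Nqo1, a quinone reductase, was above background on the 3 WT arrays, at -3.28, -3.40 and -3.25, and on no void array, at least 5.42-fold higher (adjusted p = 2.1e-08). Hmox1, another well-known NRF2 target, differed by 0.38 ± 0.24 and did not pass.

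Of 24 genes of cholesterol and fatty acid synthesis, 1 rose and 2 fell, against 3.22% and 6.16% of all genes. Srebf1, a regulator of lipid synthesis, was among those that fell, by 0.59 ± 0.10 (adjusted p = 0.0013), and it lost its call without scaling between arrays (adjusted p = 0.084). Of 19 glycolytic genes, 4 fell (21.1%, against 6.16% of all genes) and none rose, led by Eno2 at -0.96 ± 0.12. Under quantile normalization 2 fell. Without scaling between arrays 9 rose and 1 fell, where 7425 of all 18739 genes were called higher and 253 lower. Relative to the median of all genes, the glycolytic median was -0.16 both as reported and without scaling, and -0.03 with quantile normalization.

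Cell cycle genes had calls in a minority of members, with the mitotic calls all higher and the G1 calls split. None of 21 measured genes of DNA replication was called by limma (5 had an unadjusted p under 0.05). Among 10 measured D-type cyclin and G1 genes, 2 rose and 2 fell (40% called, against 9.39% of all genes). Of 20 mitotic genes 4 rose, by 0.23 to 0.32 (20%, against 3.22% of all genes), and none fell. Called or not, 16 mitotic genes had a positive difference and 4 a negative one. With chromosome medians subtracted 1 of the 4 that rose was called. The inhibitors Cdkn1b (p27) and Cdkn2c (p18) rose by 0.54 ± 0.09 and 0.43 ± 0.10. Cdkn2c lost its call in 3 of the 6 fits that leave out 1 array. Of 15 measured AP-1, EGR and MYC early genes, 1 rose and 3 fell (26.7% called, against 9.39% of all genes). Egr1 was above background on the WT arrays only and at least 1.68-fold higher (adjusted p = 0.021). Jun fell by 0.94 ± 0.23 (adjusted p = 0.016). Egr1 lost its call in 5 of the 6 fits that leave out 1 array (adjusted p up to 0.074) and with normexp (0.35, adjusted p = 0.50). Jun lost its call in 3 of those 6 fits (adjusted p up to 0.067). Of 25 cytosolic ribosomal protein genes, 7 fell by small amounts (28%, against 6.16% of all genes). The list median was -0.24, and none was called under quantile normalization. Without scaling the list median was 0.16, where the median of all genes was 0.37. Relative to the median of all genes, the list median was -0.21 both as reported and without scaling, and -0.03 with quantile normalization.

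Adhesion, matrix and death genes held a few large changes. Of 21 integrin and focal adhesion genes 2 rose and 2 fell, and of 19 matrix genes 1 rose and 2 fell. Of 14 TGF-beta response genes 1 rose and 2 fell, and of 16 caspases and death effectors 1 rose and 2 fell. These counts stand beside 3.22% of all genes called higher and 6.16% called lower. Itgb5, the integrin beta 5 chain, stood at 0.47, 0.51 and 0.54 in the WT arrays, against 2.06, 2.31 and 2.32 in the void arrays, a difference of -1.73 ± 0.14 (adjusted p = 1.5e-06). Lamb1, a laminin chain, rose by 2.49 ± 0.49 (adjusted p = 0.0048), and Col5a1 fell by 0.97 ± 0.11. Tgfb2, a TGF-beta ligand, fell by 0.85 ± 0.09, and Ccn2, a TGF-beta and YAP target, rose by 0.89 ± 0.18. Casp4, the caspase that senses cytosolic lipopolysaccharide, stood at -0.86, -0.87 and -1.12 in the WT arrays, against -3.89, -4.43 and -4.26 in the void arrays. Its difference was 3.24 ± 0.97 (adjusted p = 0.047), with an SE that reflects spread in the other groups. The call was lost without any one array (3.12 to 3.39, adjusted p 0.072 to 0.13).

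The remaining lists had these calls, to be read against 9.39% of all genes. Of 11 ERK output genes 2 rose and 1 fell, of 7 STAT5 targets 1 rose, of 16 hypoxia-induced regulators 1 rose and 2 fell, of 24 genes of oxidative phosphorylation 1 rose and 3 fell, and of 11 tubulins 1 rose and 1 fell. None of 20 proteasome and 22 lysosome genes was called by limma, and 2 of each list had an unadjusted p under 0.05.

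**Figure D4:**
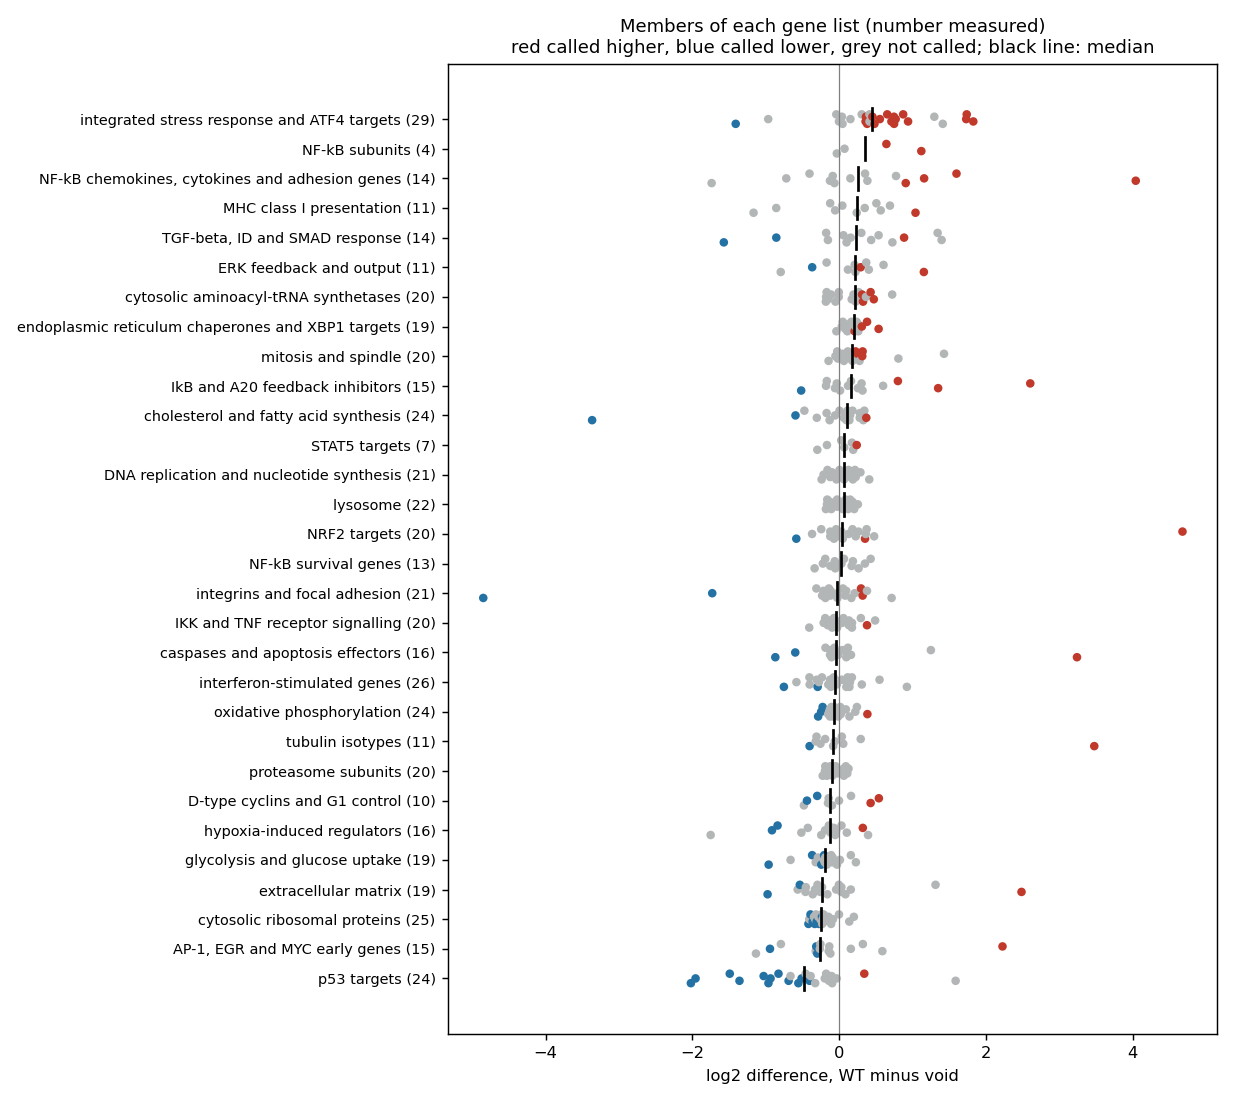
Log2 difference, WT minus void, of every measured member of 30 gene lists, ordered by list median (black line), with members called higher in red, called lower in blue and not called in grey. The integrated stress response has the highest median (0.45) and p53 targets the lowest (-0.48).

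Melanocyte markers were present in both groups. Each of the 18 passed the filter, and 17 exceeded background on every WT and void array. Oca2 and Slc24a5, both encoding melanosomal transport proteins, rose by 0.49 ± 0.11 and 0.37 ± 0.05, and Dct, a melanin enzyme, fell by 0.28 ± 0.08. The Dct call was lost without any one array, and the Oca2 call without void array 3 or WT array 1. Without scaling the direction of Dct turned (0.11), where the median of all genes was 0.37. Of markers of other cell types, 4 of 20 haematopoietic, 5 of 12 macrophage, 5 of 10 fibroblast, 3 of 10 epithelial and 3 of 7 endothelial genes were measured. Lck rose by 1.51 ± 0.31, Cd68 fell by 0.84 ± 0.16, Postn was at least 1.97-fold lower and no other marker of these cell types was called. The Postn bound holds for the main processing only. Over the alternatives its log2 difference ran from -1.12 to -0.19, and its call was lost in 1 of them (adjusted p = 0.067).

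The largest changes included genes of no list. Capn6, a calpain without protease activity, stood at -1.12, -1.18 and -1.29 in the WT arrays and was below background on every void array. The bound is a rise of at least 23.5-fold (adjusted p = 1.3e-12), and the log2 difference ran from 2.30 to 7.23 over the alternatives. For Rnf113a2, also below background on every void array, the bound was 10.6-fold and the log2 difference over the alternatives 1.47 to 5.81. Tubb2b, of the tubulin list, a beta-tubulin isotype of neurons and neural crest, stood at -1.77, -1.93 and -1.98 in the WT arrays, against -5.07, -5.19 and -5.85 in the void arrays, a difference of 3.48 ± 0.21 (adjusted p = 5.1e-08). Mgarp, a mitochondrial protein, rose by 3.39 ± 0.36. Over the alternatives the log2 difference ran from 1.43 to 3.88 for Tubb2b and from 1.83 to 3.79 for Mgarp. DXBay18, Gm5640 and Gm5936 rose by 1.99, 1.94 and 1.88. Their levels were nearly equal on each array, so they may be near-identical copies and are uncertain as separate genes.

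Among the falls, Ldhd, the D-lactate dehydrogenase, stood at -6.67, -7.15 and -7.82 in the WT arrays, none of them above background, against -0.71, -0.84 and -0.72 in the void arrays. It was at least 34.9-fold lower with WT (adjusted p = 0.00061), with a log2 difference of -6.73 to -2.34 over the alternatives. Aspg, an asparaginase, was above background on 1 of 3 WT arrays, at -5.86, -6.17 and -6.38, against 0.15, 0.24 and 0.42 in the void arrays, a fitted difference of -6.40 ± 0.52 (adjusted p = 1.4e-06) that rests in part on WT signals at background. Gstk1, a glutathione transferase, stood at -2.62, -2.55 and -2.39 in the WT arrays, against 1.10, 1.18 and 1.28 in the void arrays, a difference of -3.71 ± 0.48 (adjusted p = 0.00013). Cpz, a carboxypeptidase, fell by 4.04 ± 0.73 and Fstl1, a secreted glycoprotein, was at least 9.51-fold lower. The log2 difference of Fstl1 ran from -4.06 to -1.08 over the alternatives. Over all genes, 39 were above background on the 3 WT arrays and no void array, 16 of them called, and 79 on the 3 void arrays and no WT array, 47 of them called.

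**Figure D5:**
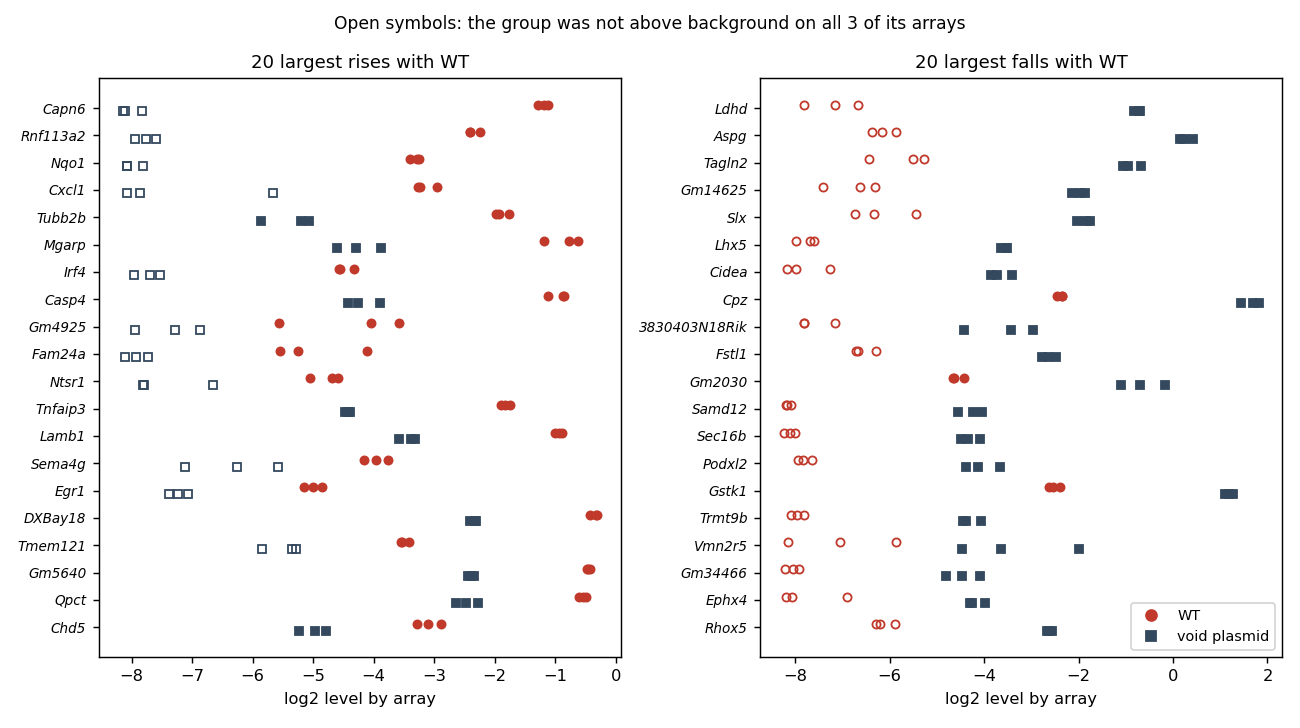
Log2 level by array of the 20 largest rises (left) and 20 largest falls (right) among called genes whose groups do not overlap, with WT arrays as red circles and void arrays as dark squares. Open symbols mark a group that was not above background on all 3 of its arrays: most of the falls are open in WT, as for Ldhd, at least 34.9-fold lower.

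D361E p65 differs from WT at residue 361 only, by the labels, and set directly against WT this contrast uses no void array. It called 788 genes (4.21%), 453 higher and 335 lower in D361E. Of these, 268 were also called between WT and void, where 9.39% of all genes were called. Both contrasts use the same 3 WT arrays, so their calls are not independent. Rela and Relb did not differ between the constructs beyond the test, at 0.01 ± 0.07 and 0.06 ± 0.11. Cxcl10, Tnfaip3 and Nfkbia were higher still with D361E than with WT, by 0.88 ± 0.08 (adjusted p = 5.0e-06), 0.79 ± 0.15 (0.0049) and 0.74 ± 0.11 (0.00064). Bcl3 was lower with D361E than with WT, averaging -2.51 against -1.52 (SE of the difference 0.16, adjusted p = 0.0012).

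The same lists were counted between the constructs. Of 29 stress response genes, 14 were lower and none higher with D361E than with WT, against 1.79% of all genes lower, and the count was 8 when only the arrays of D361E and WT were fitted and 9 without WT array 1 or D361E array 3. Trib3 and Mthfd2 were among them, at -0.98 ± 0.18 and -0.62 ± 0.09. Chac1 was another, at -0.93 ± 0.22, and lost its call in 4 of the 6 fits that leave out 1 array. Of 24 p53 targets, 5 were lower with D361E than with WT and none higher. Btg2 and Trp53inp1, which were lower with WT than with the void plasmid, differed again by -0.99 ± 0.14 and -0.60 ± 0.08. Cdkn1a differed by -0.68 ± 0.17 (adjusted p = 0.034), a call lost in 5 of the 6 fits that leave out 1 array.

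Some of the largest changes differed in size between the constructs. The genes named here were picked by size among genes also called between WT and void. Capn6 averaged -3.86 with D361E and -1.19 with WT, a difference of -2.67 ± 0.17 (adjusted p = 2.0e-07), and both groups were above background on all their arrays. Mgarp differed by -3.25 ± 0.36. Ldhd, Fstl1, B4galnt4 and Nhlrc1, all lower with WT than with the void plasmid, were above background on the 3 D361E arrays and no WT array. They were at least 16.6-fold, 14.3-fold, 3.76-fold and 3.01-fold higher in D361E than in WT.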

How the data were processed

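Total RNA labelled with Cy3 was hybridised to 1-colour Agilent mouse arrays. Intensity values were deposited by the authors as Agilent Feature Extraction 10.7.3.1 output, per the file headers and the submitters' processing notes; the intensity used is the processed signal, already background-corrected, and the series value table held the same values. Each array had 43020 non-control spots, of which 98 to 285 outlier spots were left out and none was saturated. The number of arrays limits the precision.

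Log2 intensities were averaged per probe and reduced by the array's 75th percentile. A probe had to exceed background clearly on 3 or more of the 20 arrays, which left 23433, and the brightest probe stood for a gene. A symbol was given to 28663 of 39429 probes, those whose transcript name matched a single RefSeq gene. limma 3.58.1 (R 4.3.3) fitted all 20 arrays in 6 groups, with 14 residual degrees of freedom and Benjamini-Hochberg adjustment over 18739 genes. An "at least" fold sets the brighter group's mean against the lowest signal well above background. It holds for the main processing only. Under some alternatives the log2 difference was smaller than the bound, down to 1.09 for Nqo1 and 0.46 for Irf4. Coordinates come from RefSeq (GRCm38.p6); the arrays' own grid uses another build. Named genes were NF-kB subunits, the 20 largest rises and falls that were non-overlapping and above background, and members of 36 lists. The members and lists were chosen with earlier results of these data known. The fit was tested on simulated data, where it recovered 41.8% of changes of 0.5 and 79.1% of changes of 1 log2 unit. The simulated noise was independent, without chromosome shifts, and gave 151 calls against 1759 in the real data. These rates therefore check the fit and do not measure the sensitivity of the real comparison.

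Alternatives were other scalings, normexp background correction, filters on dim probes, probe averaging, smaller sets of arrays, slide as a block, trend moderation and leaving out each array. WT array 2 and void array 1 shared a slide, the only slide with both groups. Results for some genes are not reported here.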

Additional observations from a re-analysis of the deposited data

How the results depend on the processing

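No paired analysis was possible because each title has a running number of its own and WT and void share none. Without scaling between arrays the median of all genes moved to 0.37 and 7678 genes were called, 7425 higher and 253 lower, with 512 past 2-fold, and the D361E comparison called 1403. The share of calls that were higher was 34.3% as reported, 45.9% with quantile normalization, 47.0% with normexp and 96.7% unscaled. With normexp 73 genes were called at least 2-fold, and with probes above background on all 20 arrays 131. Without the filter on dim probes 1116 genes were called, 338 of them higher, and 522 for D361E. Without the 5 arrays of both fragments 2878 were called, 1038 higher and 1840 lower, and 1602 for D361E. Leaving out 1 array gave 941 (without WT array 2) to 1722 (without void array 1) calls, 329 to 557 higher, 602 to 1165 lower and 216 to 308 at least 2-fold; it was 1000 without void array 2, 945 without void array 3, 1017 without WT array 1 and 1135 without WT array 3. The D361E count was 469 to 635. With slide as a fixed block 1957 genes were called, 1286 of them the same calls, and on the shared slide 1758 of 1759 called genes had their sign, which the lack of overlap between groups already fixes for 1751 of them. Of the called genes, 493 turned direction unscaled, 36 with normexp, 17 with probe means, 5 with quantile normalization and 1 without the dim filter. Among genes named here, the direction turned for Fam24a without the dim filter (-0.085, and 0.35 for D361E) and for Dct unscaled (0.11). The planned normexp on mean signals was not run, since the files used hold median signals. Signal over background limits the size of the change for 79 genes above background in void arrays only and for 39 in WT arrays only.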

Other observations

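Chromosome-wide shifts like those of the void arrays were also present in other groups. In the 3 arrays with residues 1 to 361, the median deviation was 0.18 to 0.21 on chromosome 12 and -0.34 to -0.31 on chromosome 16. The 5 arrays with both fragments fell into sets: on chromosome 14, replicates 1, 2 and 3 stood at -0.45, -0.47 and -0.46 and replicates 4 and 5 at 0.01 and 0.03, and on chromosome 18 the same replicates stood at 0.34, 0.35 and 0.32, and at -0.05 and -0.03. On chromosome 9 all 5 were raised, from 0.13 to 0.32. These arrays enter the shared estimate of spread, and leaving them out raised the calls between WT and void to 2878. The source of these shifts was not tested.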
